A study of Mus musculus with 121 samples.

Results

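The arrays described here follow scc7, a transplanted mouse tumour, from day 5 to day 42 after 30 Gy of carbon ions. They were chosen by their titles, which name the tumour, the beam, the dose and the day, and they are 4 of the 40 arrays of the carbon experiment, beside which the series holds 81 arrays of a gamma-ray experiment; 2 are of day 5 and 2 of day 42. The labels describe scc7 as a squamous cell carcinoma that arose spontaneously in a C3H/He mouse. Per the design text, which speaks of gamma rays only, tumours were grown in the hind legs of male C3H/HeMs mice, which received a single local dose before each tumour was dissected. RNA of the whole tumour piece was read on CodeLink arrays with 1 colour, Cy5. Both groups received the same beam and dose, and no unirradiated scc7 array of the carbon experiment is used, so every change below is between an early and a late irradiated tumour and not against an untreated one. The comparison arrays are those of nrs1, the other squamous cell carcinoma, at days 5 and 20 after the same carbon dose, of 4 further tumours (a radiation-induced fibrosarcoma, the fibrosarcoma nfsa and the mammary carcinomas mmca and mca4) at the same 2 days and dose, and of scc7 itself at day 8 after 30 Gy and day 35 after 50 Gy of gamma rays, with 2 arrays in each group.

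A tumour transplanted into an immunocompetent mouse holds, beside the cancer cells, blood vessels, fibroblasts and infiltrating immune cells. Cytotoxic T cells and natural killer (NK) cells carry granules of perforin and granzymes with which they kill target cells, and macrophages and neutrophils clear dead cells and release chemokines. Mast cells are tissue-resident cells whose granules hold chymases, tryptases and carboxypeptidase A3. Ionising radiation breaks DNA and activates the transcription factor p53, whose targets halt the cell cycle or start cell death.

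Intensities are on the log2 scale unless another unit is given: 1 unit is a 2-fold difference, the median of an array lies at 0.06, and the lowest value, a floor set for dim spots, at -2.98. A change is the mean of day 42 minus the mean of day 5 with the standard error (SE) of a linear model (limma), and a gene is said to have risen or fallen when its p-value, adjusted over all 12769 genes tested, is under 0.05. The 2 arrays of a day correlated at r = 0.997 on both days, against 0.965 to 0.966 for pairs across days, and the median SD of a gene between the 2 arrays was 0.0862 at day 5 and 0.0753 at day 42. Whether the 2 arrays of a day are separate animals is not given by the labels, so the p-values cover only variation from array to array, which may be technical. An exact permutation test of 2 arrays against 2 cannot go below p = 0.333, so no such test was used.

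The squamous label was checked against 15 markers of squamous epithelium, of which 14 had a probe. Krt5, a keratin of basal squamous cells, read -1.07 and -0.80 at day 5 and -0.85 and -1.32 at day 42 in scc7, against means of 8.76 and 8.99 in nrs1 at days 5 and 20. Trp63, the transcription factor that maintains squamous epithelium, had day means of -1.76 and -2.42 in scc7 and of 4.96 and 5.77 in nrs1. For 9 of the 14 markers every scc7 array lay below the array median, nrs1 exceeded scc7 in 14 of 14, and scc7 exceeded both fibrosarcomas in 6. Among these 6, Krt17, Krt1 and Krt10 lay near the floor in scc7 (day means of -2.85 to -2.59). Krt5 was below the array median, and Itgb4 and Krt6a exceeded the higher fibrosarcoma mean only narrowly at day 5. Itgb4, an integrin subunit of hemidesmosomes (4.05 and 4.32), and Sfn, the 14-3-3 sigma protein (4.37 and 4.38), were well above the median of the array. In the fibrosarcomas the highest mean was 3.97 for Itgb4 and 4.61 for Sfn. Krt6a, a keratin of activated squamous epithelium, was above the array median, with day means of 2.07 and 2.13 against 1.62 and 1.94 as the lowest and highest in the fibrosarcomas, and so was Krt16, which is described further on. The data therefore go against the label for Krt5, Krt14, Krt17, Trp63, Dsg3 and Ivl, but not for every keratin, and the tumour is called scc7 here. None of Krt5 (change -0.15, adjusted p = 0.792), Krt14 (-0.42, adjusted p = 0.288) and Trp63 (-0.66, adjusted p = 0.088) passed the test between day 5 and day 42.

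Between day 5 and day 42, 4174 of 12769 genes changed (32.7%): 1997 rose (15.6%) and 2177 fell (17.0%). Large changes were mostly falls, with 669 genes falling and 214 rising at least 2-fold, while the median change of all genes was 0.025. The 15 largest falls among the named genes include 5 granzymes, the NK cell receptors Ncr1 and Klrg1, the acute phase gene Saa3, the muscle genes Sln and Myl2 and the macrophage genes Ctsk, Arg1 and Cd5l, with Ifitm1 and F10, and mast cell proteases are among the largest rises. In bulk tissue, fewer cells of a type and less RNA per cell cannot be told apart, and this holds for each cell-type list below. The gene lists were written with earlier results of these data known, so they describe the change and give it no independent support. Without the first day 5 array, 2732 genes were called in place of 4174.

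**Figure D1:**
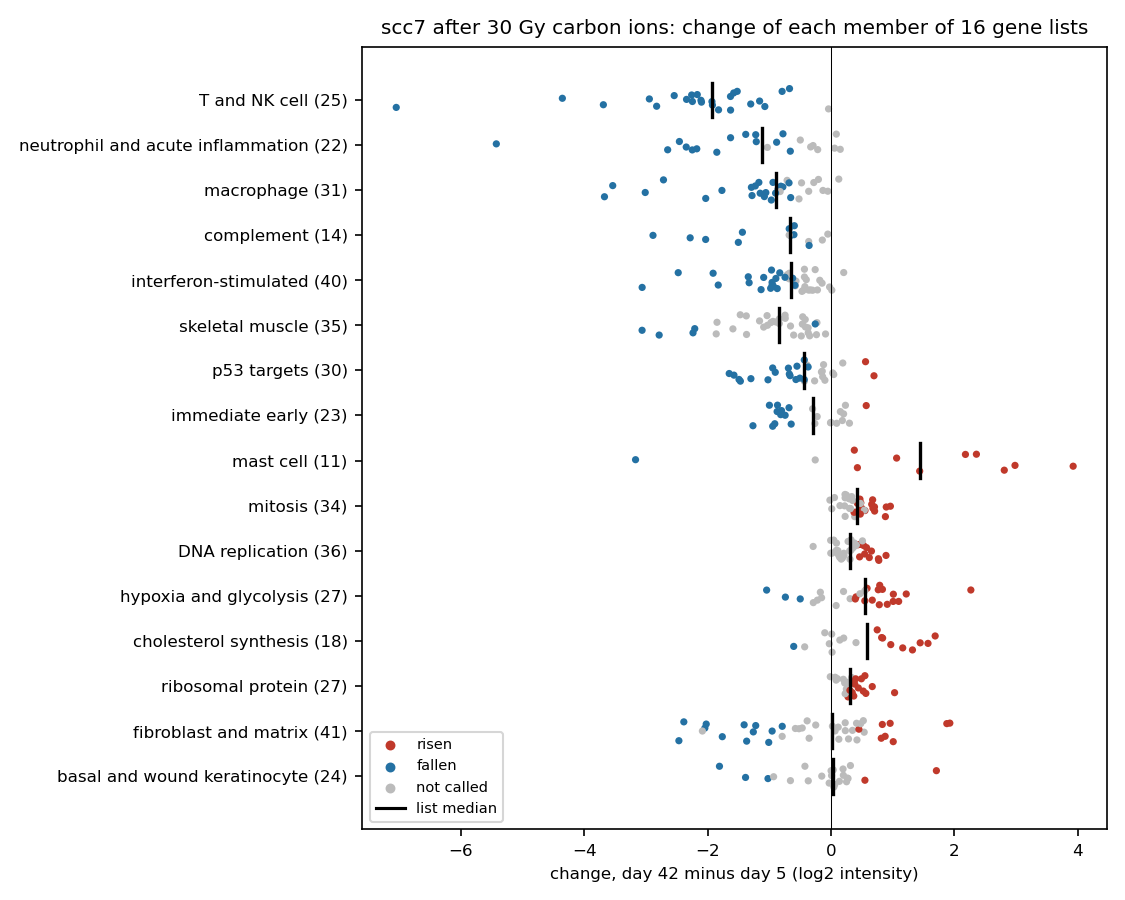
Change from day 5 to day 42 (log2 intensity, horizontal axis) of each tested member (point) of 16 gene lists, with the number tested in brackets and a black bar at the list median. Red points rose, blue points fell and grey points were not called. The T and NK cell list has its median at -1.93 and the mast cell list at 1.44, while the fibroblast and matrix list is split around 0.02.

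Transcripts of cytotoxic lymphocytes fell the most. Of 37 genes on the T and NK cell list, 25 were tested, 24 fell and none rose, with a median change of -1.93 against 0.025 for all genes (17.0% of all genes fell). Gzma, the serine protease granzyme A, read 7.20 and 7.64 at day 5 and 0.32 and 0.42 at day 42. Its level thus went from far above to near the array median, with no overlap between days, a fall of 7.05 ± 0.454 (SE, adjusted p = 1.24e-20), or 133-fold. Ncr1, the activating NK receptor NKp46, read 3.79 and 3.71 at day 5 against -0.58 and -0.62 at day 42 (change -4.36 ± 0.302, adjusted p = 2.14e-19). Prf1, the pore-forming protein perforin, read 4.77 and 4.74 against 1.70 and 1.92 (-2.94 ± 0.451, adjusted p = 2.75e-07). Both arrays of day 42 lay below both of day 5 in each case.

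Receptors shared by T and NK cells moved the same way. Cd2, an adhesion receptor of both, read 5.597 and 5.731 at day 5 and 2.79 and 2.89 at day 42 (change -2.83 ± 0.393). Klrg1, an inhibitory receptor of differentiated effector cells, fell by 3.56 ± 0.323. Thy1, a surface glycoprotein of T cells and some fibroblasts, fell by 2.47 ± 0.306 and is a member of the fibroblast and matrix list described further on. Among genes found in T cells rather than NK cells, Cd3g, a chain of the T cell receptor complex, read 6.48 and 6.30 at day 5 and 4.69 and 4.85 at day 42 (-1.63 ± 0.62, adjusted p = 0.0356), so it was still far above the array median. Cd8b1, the beta chain of the CD8 co-receptor, went from 3.91 and 3.69 to 1.99 and 1.96, and Icos, a co-stimulatory receptor, from 2.54 and 2.71 to -0.01 and 0.17. Cd247, the zeta chain of the same receptor complex, was the tested member that did not pass (-0.04, adjusted p = 0.808). The mean over the 25 members was 3.97 and 4.04 on the day 5 arrays and 1.84 and 1.87 on the day 42 arrays.

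**Figure D2:**
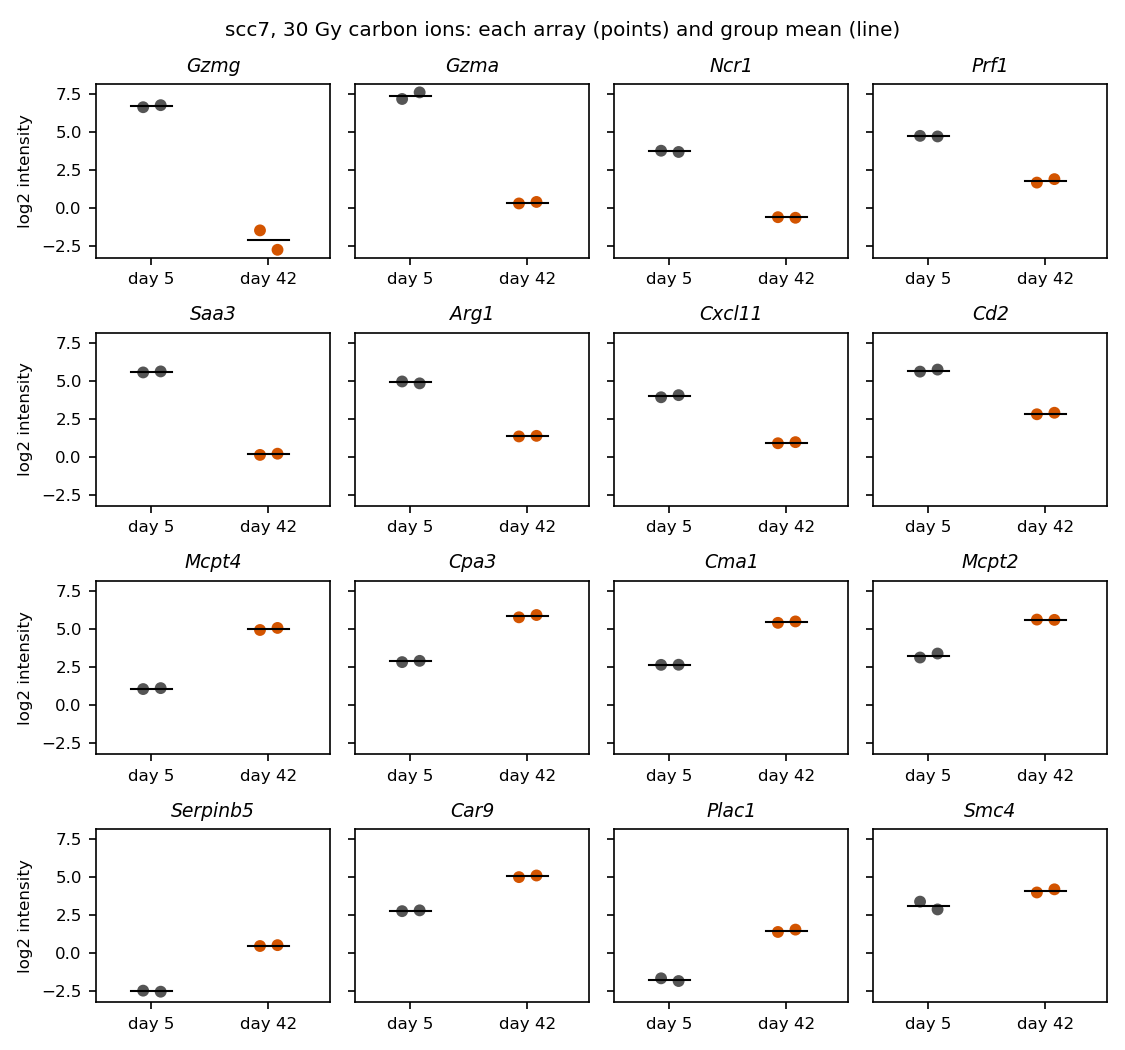
Log2 intensity (vertical axis, common to all panels) of 16 genes on each of the 4 scc7 carbon arrays, day 5 in grey and day 42 in orange, with a line at each day's mean. The upper 8 genes are lower on both day 42 arrays and the lower 8 higher on both, and the 2 arrays of a day lie close together except for Gzmg at day 42 (-1.45 and -2.73).

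The largest falls of all were in the granzymes that lie side by side on chromosome 14, next to the chymases, which rose. Gzmg (granzyme G) read 6.66 and 6.80 at day 5 and -1.45 and -2.73 at day 42, a change of -8.82 ± 0.88 (adjusted p = 1.51e-12). Gzmf (granzyme F) read 7.10 and 7.25 against -0.66 and -0.65 (-7.84 ± 0.857), and Gzme (granzyme E) 4.05 and 4.24 against -2.47 and the floor, which makes its change of -6.87 a lower bound in size. Gzmb, granzyme B, the protease that cleaves caspases in target cells, read 2.95 and 2.78 against -0.81 and -0.83 (-3.69 ± 0.369). All 4 went from well above to below the array median. Gzmd read 4.38 and 4.42 at day 5 and -1.65 on the day 42 array with a value, and was not tested since the other array had none. Gzmd, Gzme, Gzmf and Gzmg are close paralogs, and probe sequences are not used here, so how the signal divides among them is uncertain.

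In the same cluster the chymases rose. Mcpt4, a mast cell chymase, read 1.04 and 1.10 at day 5 and 4.93 and 5.07 at day 42 (change 3.93 ± 0.351, adjusted p = 1.21e-14), a 15.2-fold rise. Cma1, the chymase of connective tissue mast cells, read 2.63 and 2.64 against 5.40 and 5.49 (2.81 ± 0.349), and Mcpt2, a mast cell protease, 3.12 and 3.38 against 5.62 and 5.60 (2.36 ± 0.199). Cma2, a chymase paralog, rose by 1.93 ± 0.171, and Mcpt-ps1, an annotated pseudogene of the family whose signal may come in part from its paralogs, rose by 3.97 ± 0.35. Mcpt8, which belongs to the family but marks basophils, fell instead, from 1.97 and 2.12 to -1.07 and -1.19 (-3.17 ± 0.388, adjusted p = 7.91e-10). Of the 21 genes annotated from Cma1 to Gzmb, 11 were tested. In their order on the chromosome the 5 that rose (Cma1, Mcpt-ps1, Cma2, Mcpt2, Mcpt4) come first, then Mcpt8, which fell, then Ctsg, cathepsin G of neutrophils, which did not pass (-0.25, adjusted p = 0.334), and then the 4 granzymes that fell.

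**Figure D3:**
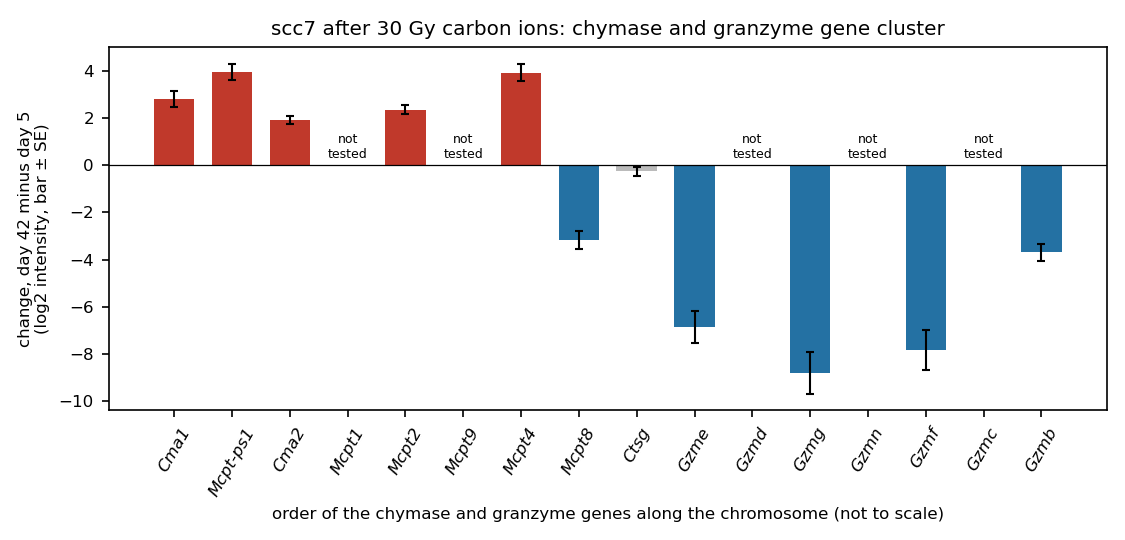
Change from day 5 to day 42 (log2 intensity, vertical axis; bars with the SE of the model) of the chymase and granzyme genes in the order in which they lie on mouse chromosome 14; predicted pseudogenes are left out and genes without a test are marked. The bars at Cma1 to Mcpt4 point up (1.93 to 3.97) and those at Mcpt8 to Gzmb point down, to -8.82 at Gzmg, with Ctsg near 0.

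The promoters of members of this cluster that moved in opposite directions are shown, as given by RefSeq for build GRCm38.p6, each 300 bases long around the annotated start, 5′ to 3′ on the minus strand. All lie on chromosome 14: Mcpt4 at chr14:56062261-56062560, Mcpt8 at chr14:56085148-56085447, Gzmg at chr14:56159530-56159829, Gzmf at chr14:56211358-56211657 and Gzmb at chr14:56262285-56262584. Capitals mark the letters TGTGGT on either strand, the core motif of RUNX factors, a family known from cytotoxic lymphocytes.
Mcpt4: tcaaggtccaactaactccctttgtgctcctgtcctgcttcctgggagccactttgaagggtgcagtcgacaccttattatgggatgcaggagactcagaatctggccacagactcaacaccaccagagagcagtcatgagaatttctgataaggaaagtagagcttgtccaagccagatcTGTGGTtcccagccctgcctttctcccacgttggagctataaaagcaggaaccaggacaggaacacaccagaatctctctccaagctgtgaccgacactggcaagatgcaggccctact
Mcpt8: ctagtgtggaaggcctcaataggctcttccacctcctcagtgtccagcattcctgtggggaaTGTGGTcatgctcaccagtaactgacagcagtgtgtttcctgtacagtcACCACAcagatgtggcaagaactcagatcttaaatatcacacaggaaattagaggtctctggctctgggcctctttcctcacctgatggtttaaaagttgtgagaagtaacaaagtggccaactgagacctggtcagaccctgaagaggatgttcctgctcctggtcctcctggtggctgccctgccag
Gzmg: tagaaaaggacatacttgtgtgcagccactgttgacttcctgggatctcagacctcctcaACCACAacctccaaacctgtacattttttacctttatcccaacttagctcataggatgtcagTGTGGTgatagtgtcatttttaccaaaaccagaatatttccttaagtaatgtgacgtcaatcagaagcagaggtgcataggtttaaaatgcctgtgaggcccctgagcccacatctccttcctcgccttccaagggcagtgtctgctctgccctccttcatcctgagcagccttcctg
Gzmf: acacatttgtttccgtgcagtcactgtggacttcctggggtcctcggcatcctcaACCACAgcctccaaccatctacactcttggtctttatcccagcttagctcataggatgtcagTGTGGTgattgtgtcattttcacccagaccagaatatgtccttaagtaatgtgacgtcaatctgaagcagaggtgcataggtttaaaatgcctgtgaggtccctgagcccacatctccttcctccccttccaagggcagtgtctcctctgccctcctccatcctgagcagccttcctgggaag
Gzmb: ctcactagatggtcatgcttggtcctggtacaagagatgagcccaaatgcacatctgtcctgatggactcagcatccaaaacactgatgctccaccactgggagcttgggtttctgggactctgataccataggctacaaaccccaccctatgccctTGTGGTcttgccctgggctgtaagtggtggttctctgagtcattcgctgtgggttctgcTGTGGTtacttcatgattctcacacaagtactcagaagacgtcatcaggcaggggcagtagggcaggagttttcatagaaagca
Gzmb, Gzmd, Gzme, Gzmf, Gzmg and Mcpt8 held 2 matches each in this window and Mcpt4, Cma1 and, on another chromosome, Cpa3 held 1, while 16.8% of 32851 promoters of the same length hold at least 1. The share of promoters with 2 matches was not counted. Gzmd, Gzme, Gzmf and Gzmg have similar windows, as given below, and are not separate cases. Mcpt2 and Cma2, which rose, had no promoter in the set used. AGATAA, a form that GATA factors are known to bind, was found on either strand in Cpa3 and in none of the 8 chromosome 14 promoters examined (11.2% of all promoters hold it). Other forms, such as the letters tgataa in the Mcpt4 promoter, were not counted, so this does not show that GATA sites are absent. TATAAA was found in Mcpt4 and Cpa3 (13.6% of all). Ungapped alignment gave 87.5% identity between the Gzmf and Gzmg windows and 81.6 to 88.9% among those of Gzmd, Gzme, Gzmf and Gzmg, against at most 35.3% between Gzmb and any of the others. A match is a description of these letters and not evidence that a factor binds there.

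The rest of the mast cell list rose with the chymases. Of 14 genes on it, 11 were tested, 9 rose and 1, Mcpt8, fell, with a median change of 1.44 (15.6% of all genes rose). Cpa3, the mast cell carboxypeptidase A3, read 2.81 and 2.90 at day 5 and 5.76 and 5.92 at day 42 (change 2.98 ± 0.429, adjusted p = 6.2e-08). Outside the rule for named genes, chosen after their values were seen, the tryptase gene Tpsab1 rose by 2.18 ± 0.19, Hdc, the enzyme that makes histamine, by 1.44 ± 0.345, and Kit, the receptor for stem cell factor, by 1.06 ± 0.247. Tpsb2, another tryptase gene, was already at 4.97 and 5.07 at day 5 and rose by 0.38 ± 0.119, and Gata2, a transcription factor of mast cells, rose by 0.43 ± 0.144. The list's mean was 2.16 and 2.27 on the day 5 arrays and 3.46 and 3.55 on the day 42 arrays.

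Macrophage transcripts were lower at day 42, unevenly from gene to gene. Of 31 tested genes of that list 21 fell (67.7%, where 17.0% of all genes fell) and none rose (median -0.90). Arg1, the arginase of alternatively activated macrophages, read 4.95 and 4.82 at day 5 and 1.33 and 1.37 at day 42 (change -3.54 ± 0.342, adjusted p = 1.66e-13). Ctsk, the collagen-degrading cathepsin K, read 3.50 and 3.14 against -0.35 and -0.36 (-3.67 ± 0.432), and Marco, a scavenger receptor, 4.54 and 4.76 against 1.86 and 2.01 (-2.72 ± 0.246). Clec4d, a C-type lectin receptor, fell by 3.01 ± 0.286 and Mmp12, macrophage elastase, by 2.03 ± 0.435. The general marker Adgre1 (F4/80) moved less, from 1.59 and 1.41 to 0.50 and 0.61 (-0.94 ± 0.283), and Cd163 did not pass (-0.48, adjusted p = 0.0747). Cd5l, a protein secreted by tissue macrophages, fell by 3.41 ± 0.246.

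Genes of acute inflammation and neutrophils fell as well, 14 of 22 tested (63.6%, where 17.0% of all genes fell) with none risen (median -1.12). Saa3, an acute phase serum amyloid, read 5.54 and 5.61 at day 5 and 0.11 and 0.19 at day 42, a 43-fold fall (change -5.43 ± 0.315, adjusted p = 2.98e-23). Cxcl5 and Cxcl3, chemokines that attract neutrophils, fell by 2.65 ± 0.341 and 2.46 ± 0.454. Il1rn, the antagonist of the interleukin 1 receptor, fell by 2.25 ± 0.205, and Hp, haptoglobin, by 2.35 ± 0.523. The neutrophil calprotectin genes moved less: S100a8 went from 3.42 and 3.68 to 2.34 and 2.35 (-1.21 ± 0.43), and S100a9 did not pass (-1.03, adjusted p = 0.0711). Leaving out the first day 5 array or the first day 42 array left 9 members called as fallen in place of 14.

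Among 14 tested complement genes 10 fell (71.4%, where 17.0% of all genes fell), with a median change of -0.66. Serping1, the C1 inhibitor, fell by 2.89 ± 0.407, from 5.92 and 5.63 to 2.80 and 2.98. The membrane regulators Cd55 (-2.28 ± 0.39) and Cd59a (-1.44 ± 0.227) fell, as did the alternative pathway genes Cfb, factor B (-2.03 ± 0.38), and Cfp, properdin (-1.50 ± 0.187). Without the second day 5 array 5 members were called as fallen, and without the first day 42 array 6.

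Of 40 tested genes induced by interferons, 19 fell (47.5%, where 17.0% of all genes fell) and none rose (median -0.65). The leading members were the chemokines induced by interferon gamma, which attract T and NK cells. Cxcl11 read 3.91 and 4.05 at day 5 and 0.88 and 0.95 at day 42 (change -3.06 ± 0.414, adjusted p = 1.17e-08). Cxcl10 read 5.91 and 6.01 against 3.52 and 3.45 (-2.48 ± 0.321), and Cxcl9 7.25 and 7.49 against 5.42 and 5.49 (-1.91 ± 0.461), so these 2 stayed well above the array median. Gbp5, a guanylate-binding protein, fell by 1.83 ± 0.237 and Oasl1 by 1.34 ± 0.229. The antiviral genes Ifit1 (-0.26, adjusted p = 0.548), Rsad2 (-0.22, adjusted p = 0.722) and Isg15 (0.21, adjusted p = 0.528) did not pass. Ifitm1, an interferon-induced transmembrane protein, was among the 15 largest falls (6.64 and 7.0 against 3.39 and 3.25, change -3.50 ± 0.292).

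Antigen presentation changed less. For reading the counts, 15.6% of all genes rose and 17.0% fell. Of 14 tested MHC class I and peptide loading genes 4 fell (2 without the second array of either day), including the peptide transporter gene Tap1 (-0.94 ± 0.25), and of 10 class II genes 1 rose (H2-Ob, 1.05 ± 0.218) and 1 fell (H2-Oa, -1.0 ± 0.261). Of 13 genes of dendritic and Langerhans cells 4 fell and 2 rose, and none was called as risen when any 1 of the 4 arrays was left out. Of 15 B and plasma cell genes 2 rose (13.3%, where 15.6% of all genes rose) and none fell. They were Pou2af1 (0.49 ± 0.144) and Pax5 (0.42 ± 0.137), both under 1 on all 4 arrays, and 1 was called without the first day 5 array or either day 42 array.

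Targets of p53 were mostly lower at day 42 than at day 5. Of 30 tested, 17 fell (56.7%) and 2 rose (6.67%), where 17.0% of all genes fell and 15.6% rose (list median -0.43). Cdkn1a, the cyclin-dependent kinase inhibitor p21, read 5.92 and 5.77 at day 5 and 4.08 and 4.31 at day 42 (change -1.65 ± 0.194, adjusted p = 2.03e-10), a 3.14-fold fall. Pmaip1, the pro-apoptotic protein Noxa, fell by 1.57 ± 0.184, Fas, which encodes a death receptor, by 1.49 ± 0.184, and Dcxr, a carbonyl reductase, by 1.47 ± 0.136. Ccng1, cyclin G1, read 4.81 and 5.11 against 4.28 and 4.26 (-0.69 ± 0.171), and Trp53inp1, a p53-induced nuclear protein, rose from 4.65 and 4.54 to 5.26 and 5.31 (0.70 ± 0.121, adjusted p = 4.43e-06). Mdm2, the ligase that degrades p53, fell by 0.57 ± 0.18 (adjusted p = 0.0106), but by 0.34 with an adjusted p of 0.28 without the first day 5 array. Without the first day 42 array 10 members of the list were called as fallen in place of 17.

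Genes of proliferation and growth rose by small steps. Of 34 tested mitosis genes 16 rose (47.1%, where 15.6% of all genes rose) and none fell (median 0.42). Of 36 DNA replication genes 11 rose (30.6%) and none fell (median 0.32). Smc4, a condensin subunit, read 3.39 and 2.88 at day 5 and 3.99 and 4.20 at day 42 (change 0.96 ± 0.222), and Racgap1, a regulator of cytokinesis, 3.73 and 3.78 against 4.49 and 4.43 (0.71 ± 0.148). Pold2, a subunit of DNA polymerase delta, rose by 0.89 ± 0.164 and Mcm5, a subunit of the replicative helicase, by 0.78 ± 0.176. Top2a, DNA topoisomerase II alpha, rose by 0.66 ± 0.181 on its brighter probe, while its other probe, below the array median on all 4 arrays, gave -0.51. The probe of Mki67, a marker of dividing cells, did not pass the filters and has no test; it read 6.81 and 6.71 at day 5 and 6.80 and 6.81 at day 42, a difference of 0.04. Of 27 ribosomal protein genes 15 rose (55.6%, where 15.6% of all genes rose) and none fell (median 0.31), led by Rplp1 (1.03 ± 0.231). This list depended on the scaling, with 3 genes called as risen after quantile normalization in place of 15. These counts rest on small changes: leaving out either day 5 array or the second day 42 array left 6 to 9 mitosis genes and 4 to 6 replication genes called, and leaving out the first array of either day left 5 ribosomal protein genes.

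Hypoxia and glycolysis genes rose in 15 of 27 tested (55.6%) and fell in 3 (11.1%), with a median change of 0.55. Among all genes 15.6% rose and 17.0% fell. Car9, the carbonic anhydrase induced by hypoxia, read 2.76 and 2.81 at day 5 and 5.00 and 5.11 at day 42 (change 2.27 ± 0.317, adjusted p = 2.99e-08). Ndrg1 (1.22 ± 0.275) and Bnip3 (1.10 ± 0.253), both hypoxia-induced genes, also rose. Slc16a3, a lactate transporter, rose by 1.01 ± 0.188 on its brighter probe, while its other probe, also above the array median, gave 0.09. Vldlr, a member of the same list, fell by 1.04 ± 0.204, and its other probe gave -0.87. Of 18 tested genes of cholesterol synthesis 9 rose and 1 fell (median 0.58), including Idi1, isopentenyl diphosphate isomerase (1.69 ± 0.314), Cyp51, lanosterol demethylase (1.57 ± 0.224), Fdft1, squalene synthase (1.45 ± 0.234), and Fdps, farnesyl diphosphate synthase (1.32 ± 0.229). Apln, the endothelial ligand apelin, rose from 2.26 and 2.48 to 4.24 and 4.28 (1.89 ± 0.187).

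Genes of the stroma were divided. Of 41 tested fibroblast and matrix genes 12 fell (29.3%, where 17.0% of all genes fell) and 8 rose (19.5%, where 15.6% of all genes rose). The list median was 0.02. Dpt, dermatopontin, rose by 1.93 ± 0.561. The largest fall of the list was in Thy1, which T cells also carry (-2.47 ± 0.306), followed by Lum, lumican (-2.39 ± 0.835, adjusted p = 0.0215). The elastic fibre gene Fbln2 fell by 2.04 ± 0.194 and Mfap5, a microfibril protein, by 2.02 ± 0.472. Leaving out any 1 of the 4 arrays left 3 to 5 members called as risen in place of 8. Of 23 endothelial genes 7 fell (30.4%) and 1 rose (4.35%). Vwf, von Willebrand factor, went from 2.23 and 2.37 to 0.27 and 0.27 (-2.03 ± 0.33). Tgfb3 rose on its brighter probe (1.28 ± 0.151), while its other probe, below the array median on all 4 arrays, gave 0.09. Tgfb1 fell (-0.88 ± 0.189). In the Wnt list 6 of 25 rose (24%, where 15.6% of all genes rose), led by the antagonist Dkk2 (2.40 ± 0.345). In the same list 5 fell (20%, where 17.0% of all genes fell), led by the transcription factor Lef1 (-1.64 ± 0.184 on its brighter probe). The other Lef1 probe, above the array median on all 4 arrays, gave 0.25. Without the second day 5 array 3 Wnt genes were called as risen.

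Skeletal muscle genes, which mark leg muscle in a dissected piece, had a median change of -0.84, with 5 of 35 fallen (14.3%, where 17.0% of all genes fell) and none risen. The mean of the list was 4.21 and 4.31 on the day 5 arrays and 3.20 and 3.30 on the day 42 arrays. The members that fell include slow-fibre troponins: Tnnt1 read 3.89 and 3.89 at day 5 and 0.87 and 0.78 at day 42 (change -3.06 ± 0.561), and Tnni1 fell by 2.79 ± 0.563. Outside the list, Sln, the calcium pump regulator sarcolipin (-4.82 ± 0.828), and Myl2, the slow myosin light chain (-4.60 ± 0.694), were among the 15 largest falls. The abundant muscle genes Acta1 (-0.37, adjusted p = 0.807) and Ckm (-0.23, adjusted p = 0.904) did not pass. When the model was fitted on the carbon arrays alone, 32 members fell, and leaving out the second day 5 array or either day 42 array left 3. The part of muscle content in the other changes was not tested.

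A few epithelial genes rose. Serpinb5, maspin, read -2.48 and -2.54 at day 5 and 0.47 and 0.52 at day 42 (change 3.00 ± 0.199, adjusted p = 3.77e-19). Ppl, the cornified envelope protein periplakin, rose from 1.17 and 0.79 to 3.26 and 3.36 (2.33 ± 0.284), Lamb3, a laminin chain, by 1.71 ± 0.205, Krt8, a keratin of simple epithelium, by 1.71 ± 0.283, and Klk10, a kallikrein, by 1.70 ± 0.275. Others fell. Krt16, a keratin of activated squamous epithelium, read 4.14 and 4.34 at day 5 and 2.40 and 2.46 at day 42 (change -1.81 ± 0.184, adjusted p = 2.45e-12), and Spint2, a protease inhibitor of epithelia, 3.54 and 3.65 against 1.85 and 1.90 (-1.72 ± 0.198). The desmosomal gene Dsp (-1.38 ± 0.192) and Epcam (-0.64 ± 0.166) also fell, both below the array median on all 4 arrays. As lists, 2 of 24 basal and wound keratinocyte genes rose and 3 fell (median 0.04), 1 of 14 squamous differentiation genes rose and 3 fell (median -0.11), and 2 of 15 simple epithelial genes rose and 5 fell (median -0.18), where 15.6% of all genes rose and 17.0% fell. Leaving out either day 5 array left 1 squamous differentiation gene called as fallen, leaving out the first day 5 or either day 42 array left 1 basal and wound keratinocyte gene called as risen, and leaving out any 1 of the 4 arrays left 1 simple epithelial gene called as risen. Among the receptors and regulators of the epidermal growth factor family, Egfr rose from 3.09 and 3.21 to 4.05 and 4.14 (0.94 ± 0.119), as did its inhibitors Lrig1 (1.29 ± 0.16) and Errfi1 (0.91 ± 0.169), and the receptor gene Erbb3 fell by 1.19 ± 0.175.

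The change in scc7 was set against the change of the other tumours under the same carbon dose, with the limit that their late day is 20 and not 42. Against the mean change of the other 5 tumours, 2739 of 12757 genes differed (21.5%), 997 with a higher change in scc7 (7.82%) and 1742 with a lower one (13.7%). The share of higher among these was 36.4%, against 47.5% after quantile normalization and 54.0% when arrays were centred on their 75th percentile, so the excess of lower changes depends on the scaling. Leaving out the second day 5 or the first day 42 array of scc7 left 1772 and 1712 genes.

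For cytotoxic lymphocyte genes the list medians of scc7 and both fibrosarcomas were negative and lay far below those of the other tumours. The median change of the T and NK cell list was -1.93 in scc7, -2.68 in the radiation-induced fibrosarcoma, -1.88 in nfsa, -0.18 in nrs1, 0.14 in mmca and 0.33 in mca4. Ncr1 fell by 4.36 in scc7, and its changes elsewhere were -4.84 in the radiation-induced fibrosarcoma, -4.24 in nfsa, -1.16 in mca4, -1.03 in mmca and -0.78 in nrs1. The change in scc7 was below the mean of the other 5 for 12 of the 25 genes and above it for none. Among all genes 13.7% had a lower change in scc7. Gzmg and Gzmf fell further in scc7 than in the mean of the others: Gzmg changed by -2.46 to 0.02 in the other 5 tumours, and the difference from scc7 was -7.74 (adjusted p = 4.26e-09), while for Gzmf the range was -1.84 to -0.18 and the difference -6.75 (adjusted p = 6.36e-08).

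The myeloid and mast cell genes separated scc7 from the fibrosarcomas in part. Against the mean of the others, 7.82% of all genes had a higher change in scc7 and 13.7% a lower one. The neutrophil and acute inflammation list had a median change of 1.26 in the radiation-induced fibrosarcoma and 1.02 in nfsa against -1.12 in scc7, and 16 of 22 genes had a lower change in scc7 than in the mean of the others. Saa3 changed by -0.34 to 2.44 in the other tumours (difference -6.18, adjusted p = 3.02e-24), and Arg1, which rose by 1.36 in the radiation-induced fibrosarcoma and 2.17 in nfsa, fell by 1.90 in nrs1 and gave -0.31 in mmca and -0.69 in mca4, had a difference of -3.67 (adjusted p = 3.78e-12). Of the macrophage genes 18 of 31 had a lower change in scc7 and 1 a higher one. The mast cell list had a median of 1.44 in scc7, 1.18 in nfsa, 0.37 in nrs1, 0.03 in mmca, -0.01 in mca4 and -0.32 in the radiation-induced fibrosarcoma, and 7 of 11 genes had a higher change in scc7 than in the mean of the others, so nfsa came closest. Mcpt4 changed by 2.32 in nfsa, and by -0.32 in the radiation-induced fibrosarcoma, 0.12 in mmca and 0.04 in mca4 (difference from their mean with nrs1, of which 1 array lacked a value, 3.40, adjusted p = 2.2e-10).

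Mitosis and hypoxia genes split the tumours another way. The mitosis list had medians of 0.42 in scc7, 0.90 in nrs1, 0.82 in the radiation-induced fibrosarcoma and 0.87 in nfsa, and of -0.90 in mmca and -0.95 in mca4. Car9 rose by 2.27 in scc7, 2.90 in the radiation-induced fibrosarcoma and 3.04 in nfsa, with changes of 1.28 in nrs1, -0.19 in mmca and -1.06 in mca4. The skeletal muscle medians, -0.84 in scc7, ranged from -1.43 in the radiation-induced fibrosarcoma to 1.87 in mca4. The part of muscle content and of the later day in these differences was not tested.

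**Figure D4:**
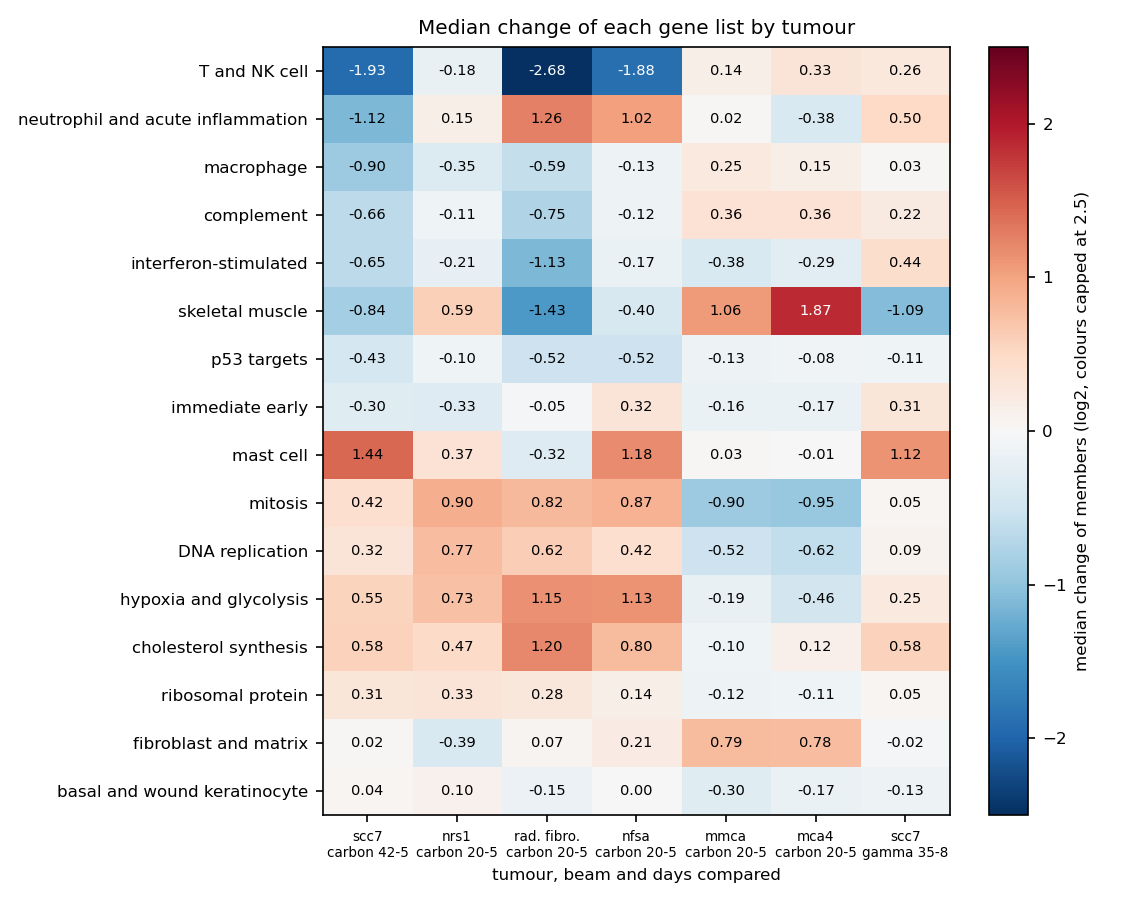
Median change of the tested members of 16 gene lists (rows, colour and number, log2) in scc7 and 5 other tumours after 30 Gy of carbon ions and in scc7 after gamma rays (columns, with the days compared). The T and NK cell row is near -2 or below in scc7 and both fibrosarcomas, and the mast cell row is above 1 in scc7 after both beams and in nfsa.

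Against nrs1 alone, the other tumour labelled as a squamous cell carcinoma, 3387 of 12490 genes differed in their change (27.1%), 1126 with a higher change in scc7 (9.02%) and 2261 with a lower one (18.1%). The median difference of all genes was -0.128, and the share of higher was 33.2%, against 46.4% after quantile normalization and 53.4% with centring on the 75th percentile. In the T and NK cell list 16 of 24 genes tested against nrs1 had a lower change in scc7 and none a higher one, and in the mast cell list 6 of 10 a higher and 2 a lower one. Squamous differentiation genes had list means of 0.16 to 0.36 on the scc7 arrays. In nrs1 their median change was -1.63 and 11 of 14 fell, where 35.9% of all genes changed (11.3% fell). Of these genes 9 of 14 had a higher change in scc7 than in nrs1. Respiratory chain and ATP synthase genes rose in 24 of 34 in nrs1, where 24.6% of all genes rose, and in 1 of 35 in scc7, and 20 of 34 had a lower change in scc7.

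The same tumour after gamma rays gives a side-by-side view, with no arrays shared. From day 8 after 30 Gy to day 35 after 50 Gy, 435 of 12722 genes were called (3.42%), 255 higher (2.0%) and 180 lower (1.41%), and the share of higher was 58.6%, against 39.9% after quantile normalization and 48.5% with centring on the 75th percentile. The days and the late dose differ from the carbon arrays, the spread between gamma arrays was larger (median SD 0.108 against 0.0757 in carbon groups), and the number of calls ran from 129 without the first day 8 array to 612 without the second day 35 array. Fitted on its own arrays alone, the gamma comparison had 8 calls, 3 higher and 5 lower. The gamma calls given here and below therefore rest on the spread estimated over all arrays of the series. Of 12535 genes tested in both, 49.9% had the same sign. Of 211 genes that rose at least 2-fold after carbon ions, 68.2% had a positive change after gamma rays and 34 were called there, 29 of them as risen. Of 639 that fell at least 2-fold, 46.8% had a negative change, and 40 of the 68 called were fallen.

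Gzma, Gzmf, Gzmg and several mast cell protease genes changed in the same direction after both beams. For reading the list counts, 2.0% of all genes rose after gamma rays and 1.41% fell. Gzmg changed by -8.28 (adjusted p = 2.78e-10) and Gzmf by -7.33 (adjusted p = 3.04e-09) after gamma rays, next to -8.82 and -7.84 after carbon ions, and Gzma by -3.43 next to -7.05. Mcpt4 rose by 3.24 (adjusted p = 2.78e-10), Cpa3 by 3.23 and Cma1 by 2.95 after gamma rays, next to 3.93, 2.98 and 2.81. The mast cell list had 6 of 11 members risen after gamma rays, although Mcpt2, which rose by 2.36 after carbon ions, gave -0.21 (adjusted p = 0.712). The whole T and NK cell list had a median of 0.26 after gamma rays, with 3 of 25 fallen and none risen. Gzma and Ncr1 (-2.04, adjusted p = 1.52e-06) were among the 3, while Prf1 gave -0.32 (adjusted p = 0.824). In the macrophage list 3 of 31 rose and 2 fell (median 0.03). Marco and Ctsk, which fell after carbon ions, rose after gamma rays by 1.86 (adjusted p = 9.05e-08) and 1.95 (adjusted p = 0.00278), whereas Arg1 fell after both beams (-1.49 after gamma rays, adjusted p = 0.00425). Saa3 also fell after both (-1.74 after gamma rays, adjusted p = 0.000139). Genes induced by interferons rose in 7 of 40 and fell in none. The differences between the beams were not tested.

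**Figure D5:**
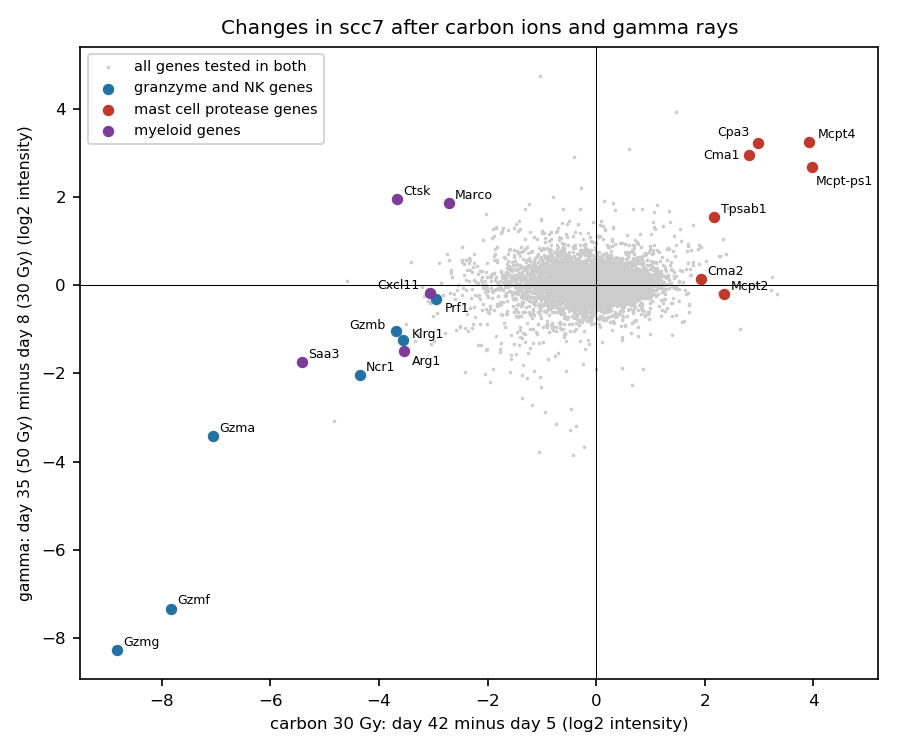
Change of each gene in scc7 from day 5 to day 42 after 30 Gy of carbon ions (horizontal axis) and from day 8 after 30 Gy to day 35 after 50 Gy of gamma rays (vertical axis), both in log2 intensity, for the 12535 genes tested in both (grey), with named genes in colour. Gzmg and Gzmf lie at the lower left (-8.82 and -8.28, -7.84 and -7.33), Mcpt4, Cpa3 and Cma1 at the upper right, and Ctsk and Marco at the upper left.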

How the data were processed

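Per the labels' protocols, RNA of transplanted tumours was prepared with ISOGEN followed by RNeasy and hybridised to CodeLink arrays after Cy5 labelling. The authors deposited 1 linear intensity per probe and array, with array medians near 1 (1.035 to 1.046 on the 4 scc7 carbon arrays). Their normalization, background method, spot filter and scanner software are not given in the sources used here. On these arrays 0.544 to 0.814% of probes had no value, and 31 to 48 values were at or below 0.

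Intensities were raised to a floor of 0.127 (the 5th percentile of all positive ones) and converted to log2, with gaps left as gaps. In the platform annotation 21615 of 36227 probes name 1 gene, 681 several and 13931 none, and 21487 of the first matched RefSeq by Entrez identifier. Probes with a value on at least 90% of arrays and a mean above the 20th percentile were kept, with the probe of highest mean for each gene, giving 12962 genes. limma 3.58.1 in R 4.3.3 fitted 54 group means to all arrays of the series (67 residual degrees of freedom), with a mean-variance trend. Tests were 2-sided contrasts with Benjamini-Hochberg adjustment, called at an adjusted p under 0.05, for genes with a value on all arrays of the groups compared. Tumours weighed equally in the mean of the other 5, where a gene with a missing array rests on the rest of its group.

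The members and lists were chosen with earlier results of these data known. Named genes are the 15 largest rises and falls without overlap and with a full symbol, up to 5 leading called members of each list, selected p53, squamous and proliferation genes, and the 5 largest differences each way from nrs1 and from the other tumours. Further list members are given where they did not pass or show the range of a list, chosen after their values were seen. On simulated data for the day 42 against day 5 comparison (12769 genes, 200 changed), 38% of genes changed by 0.5 and 85% of those changed by 1 were called, and unchanged genes made up 4.65% of calls. The simulation drew independent noise and changed far fewer genes than the 4174 called in the data, so these rates need not hold there. It cannot show the rate of false calls if the arrays of a day are technical repeats. Replicate numbers did not pair the arrays: differences between the arrays of day 5 and of day 42 correlated at -0.00678. Array number limits the precision of every value. The plots were made in Python 3.11.15 with matplotlib 3.10.9.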

Additional observations from a re-analysis of the deposited data

Results flagged for a closer look

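Each result here is a difference between the change of scc7 (day 42 minus day 5) and that of other tumours (day 20 minus day 5) after 30 Gy of carbon ions, tested as a contrast of contrasts in limma and past an adjusted p of 0.05. Of all genes tested, 3387 differed from nrs1 and 2739 from the mean of the other 5 tumours.

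Against nrs1, the most negative differences were Gzmg (-7.64), Gzmf (-6.37), Saa3 (-6.03), Gzma (-5.59) and the immunoglobulin segment Ighv1-54 (-5.49), the last with a change of 6.28 in nrs1 and 0.79 in scc7. The most positive were Pllp, plasmolipin (4.25), Ppl (4.14), Lce3b, a late cornified envelope protein (4.01), S100g, a calcium-binding protein (3.88), and Mcpt-ps1 (3.83). For Pllp, Lce3b and S100g the change lay mostly in nrs1 (-3.60, -3.47 and -3.89, against 0.66, 0.55 and -0.01 in scc7).

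Against the mean of the other 5 tumours, the most negative were Gzmg (-7.74), Gzmf (-6.75), Saa3 (-6.18), Gzme (-5.60, with 1 array at the floor) and Myl2 (-4.97). The most positive were Mcpt-ps1 (3.79), Mcpt4 (3.40), Daam2, a formin (2.89), Plac1, a placental protein (2.85), and Klk10 (2.77). Klk10 changed by 1.70 in scc7, -1.93 in nrs1, -1.84 in mmca and -1.87 in mca4, and was not called in either fibrosarcoma. Plac1, with 3.22 in scc7, also rose in nrs1 (1.94), the radiation-induced fibrosarcoma (1.36) and nfsa (1.56). It fell in mmca (-1.29) and mca4 (-1.72). Mcpt-ps1 also rose in nfsa (2.28). Myl2 ran from -3.50 to 4.35 in the other tumours, where the median change of the skeletal muscle list ranged from -1.43 to 1.87.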

How the results depend on the processing

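Of 174 named genes tested, 169 were called and 122 of these kept their call and direction under every alternative, while 47 lost the call under at least 1, most often with missing values at the floor.

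Without each array in turn, calls ranged from 2732 to 3030 for day 42 against day 5 (4174 with all arrays), 2587 to 2840 against nrs1, 1712 to 1892 against the other tumours and 129 to 612 after gamma rays. With carbon arrays only, calls numbered 6667 for day 42 against day 5, 6189 against nrs1 and 5487 against the others. With array weights, whose estimation stopped before convergence, they were 5981, 5334 and 4751 in the same order. With only the comparison's own arrays they were 5938, 5175 and 4838, and 8 after gamma rays. The replicate number as a block gave 4289, 3542, 2903 and 510 calls, all within 1.5 times, although the numbers do not pair the arrays. Changes that crossed 0 were those of S100g (-0.01, but 0.003 with 75th percentile centring and -0.037 to 0.018 without each array) and Krt5 (-0.15, but -0.383 to 0.085 without each array), neither called. The cause was not tested. Over 15 alternatives the T and NK cell list had 21 to 30 members fallen, the macrophage list 17 to 28, the mast cell list 7 to 11 risen, interferon-induced genes 13 to 34 fallen, mitosis genes 6 to 26 risen, replication genes 4 to 20, ribosomal protein genes 3 to 20 and skeletal muscle genes 3 to 32 fallen. The number of arrays, 2 a day, limits the precision of small changes, and probes near the floor bound the size of falls.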

Other observations

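The following genes of amino acid supply and response were picked after their values were seen and form no fixed list, so they show no change of a group. Asns, asparagine synthetase, read 4.00 and 4.14 at day 5 and 5.80 and 5.89 at day 42 (change 1.78 ± 0.197, limma adjusted p = 3.46e-11), and Slc1a4, a neutral amino acid transporter, 1.58 and 1.34 against 3.16 and 3.32 (1.78 ± 0.16). Aldh1l2, a mitochondrial folate enzyme, rose by 2.02 ± 0.164, Shmt2, which makes glycine from serine, by 1.01 ± 0.148, and Slc7a5, a leucine transporter, by 1.20 ± 0.218. Trib3 (1.35 ± 0.224) and Atf5 (1.11 ± 0.178), both known as genes of the amino acid response, also rose. Slc3a2, the partner of Slc7a5 (0.11, adjusted p = 0.611), Cth, which makes cysteine (0.13, adjusted p = 0.76), Atf4 (0.31, adjusted p = 0.0629), Chac1 (0.59, adjusted p = 0.0596) and Ddit3 (-0.14, adjusted p = 0.647) did not pass. Vldlr, which is on the hypoxia and glycolysis list, fell by 1.04 ± 0.204. After gamma rays Trib3 (0.83, adjusted p = 0.0196), Ddit3 (0.80, adjusted p = 0.0195), Slc3a2 (0.60, adjusted p = 0.00849) and Aldh1l2 (0.56, adjusted p = 0.0365) rose, while Asns gave 0.51 (adjusted p = 0.157).

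Rnf152, a ubiquitin ligase, read 0.03 and 0.07 at day 5 and 3.35 and 3.44 at day 42 (change 3.34 ± 0.237), and Slc6a2, the noradrenaline transporter, -1.62 and -1.61 against 1.71 and 1.56 (3.25 ± 0.283). Plac1 rose from -1.66 and -1.84 to 1.39 and 1.546 (3.22 ± 0.323). None of these 3 passed after gamma rays (-0.21, 0.18 and -0.11). After carbon ions Rnf152 also rose in the radiation-induced fibrosarcoma (2.12) and nfsa (2.64), and was not called in nrs1, mmca and mca4. Slc6a2 also rose in nrs1 (1.26), the radiation-induced fibrosarcoma (0.79) and nfsa (1.13), and was not called in mmca and mca4. Plac1 in the other tumours is given above. F10, coagulation factor X, fell from 2.92 and 3.07 to -0.46 and -0.21 (-3.33 ± 0.241), and by 1.27 after gamma rays (adjusted p = 0.000323).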
